A study of Homo sapiens with 12 samples.

Results

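The effect of decitabine was examined in K562, the adriamycin-sensitive cell line of the study, by subtracting the level of each gene in untreated cells from its level in treated cells. The members are the 3 arrays of untreated K562 and the 3 arrays of K562 given 5 nM decitabine for 72 hours, 6 of the 12 arrays in all, and the comparison runs across all 18417 genes with a transcript cluster of their own. K562 is a long-established cell line of chronic myeloid leukaemia that carries the BCR-ABL1 fusion. The other 6 arrays hold K562/ADR, a subline made resistant to adriamycin and kept in 50 nM of that drug, 3 untreated and 3 after the same decitabine treatment. All cells grew in RPMI medium with 10% fetal calf serum, and total RNA extracted with Trizol was hybridized to Affymetrix arrays as biotin-labelled cRNA. The labels do not say what the untreated cells received in place of the drug. Nor do they name a separate culture for each replicate, and p-values therefore reflect no more than the spread among these arrays, which may be technical. Each group is 1 cell line, and no batch or scan date is given for the arrays.

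Decitabine is a deoxycytidine analogue. Cells phosphorylate it and build it into DNA, where it binds DNA methyltransferases covalently and depletes them, so that methylation of CG dinucleotides is lost as cells divide. Promoters of germline genes are commonly methylated in somatic and leukaemia cells, and many of these genes are known to be expressed after such drugs. K562 cells have erythroid and megakaryocytic features and can be driven further along either path by various agents.

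Levels are log2 intensities as deposited, differences are treated minus untreated on the same log2 scale with the standard error (SE) after the ± sign, and a gene was called raised or lowered at a Benjamini-Hochberg adjusted p under 0.05 in limma. Background was bounded by the array lower quartiles, of which the highest was 3.39: a group with a mean up to that value was not shown to exceed background, and a fold that starts or ends there is a minimum. The K562 arrays correlated at 0.9900 to 0.9935 within the untreated group and at 0.9922 to 0.9937 within the treated group. Between the groups the correlations ran from 0.9785 to 0.9881, and the highest 3 all involved untreated replicate 3 (0.9859, 0.9864 and 0.9881). That array stood apart from the other untreated arrays, and the counts of called genes, the list medians and the differences of named genes were recomputed without it. The promoter shares, the chromosome shares and the correlation between the lines were computed with all arrays. Treated replicate 1 leaned the other way, towards the untreated arrays, to a smaller extent. The array of untreated replicate 3 lay towards treated cells in most gene groups. Its median position, from 0% at the other untreated arrays to 100% at the treated arrays, was 40.1% for 7 raised myeloid genes, 29.4% for 15 raised red cell membrane and enzyme genes, 29.1% for 18 lowered ribosome biogenesis genes and 16.3% for 30 lowered histone genes, but -0.41% for 6 raised mitosis genes. These genes were called with a difference of at least 0.5 when the array was left out. What sets these positions was not tested.

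**Figure D1:**
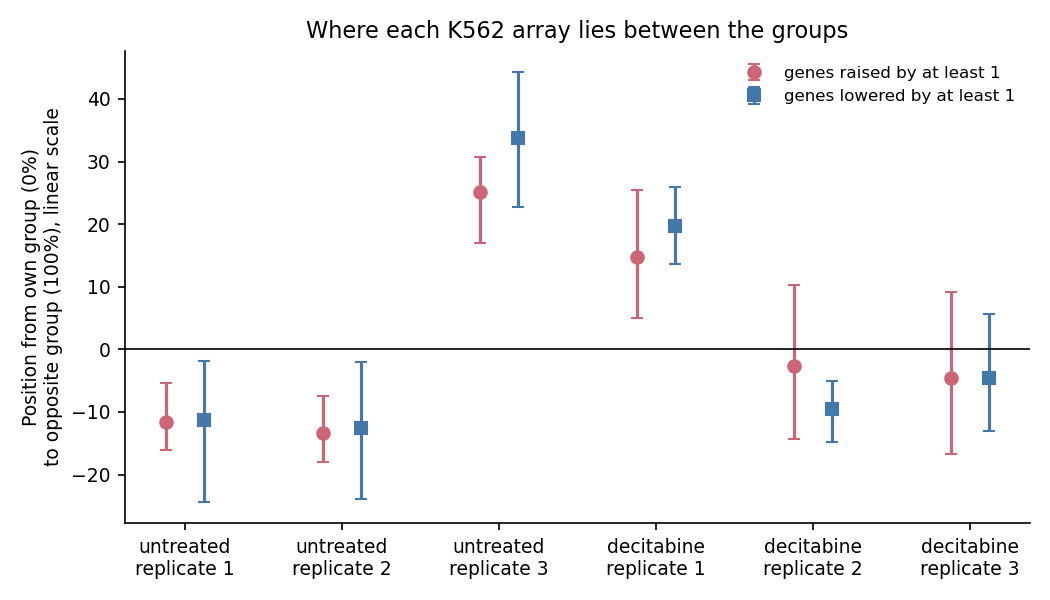
Position of each of the 6 K562 arrays on the linear intensity scale, from the mean of the other arrays of its own group (0%) to the mean of the opposite group (100%), as the median (marker) and quartiles (bars) over genes raised or lowered by at least 1 when that array was left out. Untreated replicate 3 sits at 25.1% for raised and 33.8% for lowered genes and treated replicate 1 at 14.7 and 19.7%, while the other 4 arrays sit below 0%.

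Decitabine changed the level of 5585 of the 18417 genes (30.3%). Of these 2685 were raised (14.6% of genes tested) and 2900 lowered (15.7%). Most changes were small, with a median of 0.45 among rises and -0.41 among falls. Rises of at least 1 were seen in 250 genes (1.36%) and falls of at least 1 in 105 (0.57%), and 28 genes rose and 7 fell by at least 2. The largest rise was 3.62 and the largest fall -2.52. The median untreated level of the 250 strongly raised genes was 5.25, slightly below the 5.50 over all genes, and reached 6.70 after treatment. Strongly lowered genes started high, at a median of 7.79, and ended at 6.59. In 20 of the 250 the untreated mean, and in 3 of the 105 the treated mean, was not shown to exceed background. Over all 18417 genes neither group mean was shown to exceed it in 2925, which is a narrower condition. Without untreated replicate 3, 2710 genes were raised (14.7%) and 3065 lowered (16.6%), of which 329 (1.79%) and 148 (0.804%) by at least 1. Among 13837 clusters with several gene symbols or none, which enter no gene comparison, 616 were raised (4.45%) and 998 lowered (7.21%). Calls with and without untreated replicate 3 numbered 5120, all in the same direction, which is 91.7% of the calls with all arrays and 88.7% of those without that array. Of the 250 strong rises 247 were still at least 1, and so were all 105 strong falls.

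The 15 largest rises belonged, in descending order, to SLC4A1, TKTL1, HORMAD1, AQP1, CD226, PGLYRP4, DUSP21, GCNA, CA1, LYZ, C3, ALAS2, SLAMF6, AHSP and HPGD, from 3.62 down to 2.34. The 15 largest falls belonged to H1-5, H2AC21, EGR1, H2AC20, H4C15 and H4C14 (which share 1 set of values), SNORD20, H4C2, MIR17HG, FOS, EREG, H1-3, H2AC8, H2AC4 and GPATCH4, from -2.52 to -1.57. Both sets were taken only from genes whose treated and untreated arrays do not overlap. Over all genes tested, every treated array lay above every untreated array in 19.3% and below in 20.7%. In 14 of the 15 rises untreated replicate 3 read more than 0.8 above both other untreated arrays, with SLAMF6 the exception.

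**Figure D2:**
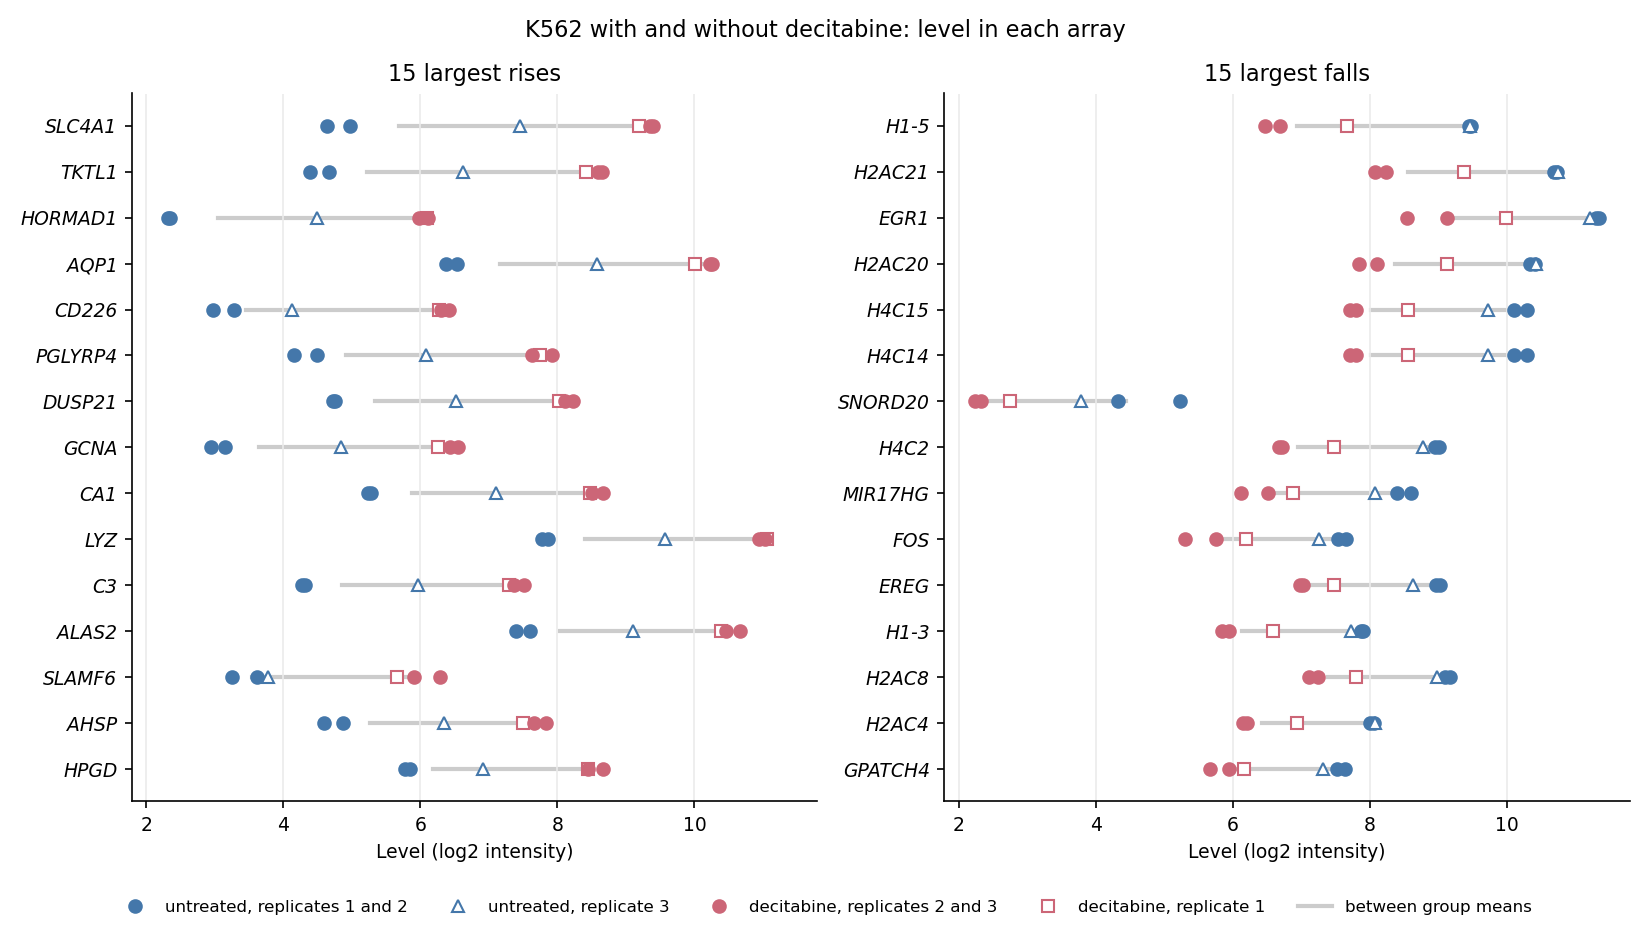
Level (log2 intensity) of the 15 most raised and 15 most lowered genes in each K562 array, with untreated replicate 3 and treated replicate 1 as open symbols and a grey line between the group means. The genes were chosen among those whose treated and untreated arrays do not overlap. Untreated replicate 3 lies between the groups for most raised genes. Treated replicate 1 is the treated array nearest the untreated ones for all 15 lowered genes.

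Promoters of genes with a RefSeq entry are shown because decitabine acts on CG dinucleotides. They cover the largest rises among the named germline and cancer-testis genes, other large rises and the largest falls. At most 4 genes per list and direction were named. HORMAD1 and SSX3, which rose by more than SSX1, are not shown. The sequences are the 250 bases before the RefSeq start, 5′ to 3′ on the gene's strand in GRCh38.p14, with each CG in capitals. The first 4 belong to germline or cancer-testis genes that rose. TKTL1 lies at chrX:154295545-154295794 (+ strand), GCNA at chrX:71578187-71578436 (+), MAEL at chr1:166975332-166975581 (+) and SSX1 at chrX:48255142-48255391 (+). The next pair, AQP1 at chr7:30911603-30911852 (+) and CD226 at chr18:69956800-69957049 (- strand), are other large rises, and H1-5 at chr6:27867589-27867838 (-) and H2AC21 at chr1:149887966-149888215 (-) are the largest falls.
TKTL1: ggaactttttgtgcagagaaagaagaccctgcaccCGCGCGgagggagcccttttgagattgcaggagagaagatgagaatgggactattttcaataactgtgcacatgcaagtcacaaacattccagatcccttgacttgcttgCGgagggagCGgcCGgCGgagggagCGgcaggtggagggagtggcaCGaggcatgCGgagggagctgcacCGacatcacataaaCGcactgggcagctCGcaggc
GCNA: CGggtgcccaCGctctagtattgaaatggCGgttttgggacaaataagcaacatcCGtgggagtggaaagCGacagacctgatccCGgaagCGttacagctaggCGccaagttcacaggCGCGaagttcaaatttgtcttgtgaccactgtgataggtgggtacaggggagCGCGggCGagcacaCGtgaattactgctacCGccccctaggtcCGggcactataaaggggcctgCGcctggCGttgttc
MAEL: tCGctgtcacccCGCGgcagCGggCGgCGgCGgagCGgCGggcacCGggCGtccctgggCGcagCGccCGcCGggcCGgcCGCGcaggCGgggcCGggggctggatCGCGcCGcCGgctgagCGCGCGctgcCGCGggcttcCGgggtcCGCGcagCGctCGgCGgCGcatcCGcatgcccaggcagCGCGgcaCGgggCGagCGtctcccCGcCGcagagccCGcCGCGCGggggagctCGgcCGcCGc
SSX1: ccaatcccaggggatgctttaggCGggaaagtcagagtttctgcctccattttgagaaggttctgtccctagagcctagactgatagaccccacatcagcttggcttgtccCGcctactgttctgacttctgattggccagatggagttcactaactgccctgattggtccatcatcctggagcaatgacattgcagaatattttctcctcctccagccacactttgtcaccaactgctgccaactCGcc
AQP1: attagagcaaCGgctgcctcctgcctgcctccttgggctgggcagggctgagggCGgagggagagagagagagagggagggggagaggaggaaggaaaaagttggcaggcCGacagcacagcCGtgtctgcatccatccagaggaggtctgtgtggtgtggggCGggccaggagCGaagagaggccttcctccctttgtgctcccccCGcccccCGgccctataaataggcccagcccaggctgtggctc
CD226: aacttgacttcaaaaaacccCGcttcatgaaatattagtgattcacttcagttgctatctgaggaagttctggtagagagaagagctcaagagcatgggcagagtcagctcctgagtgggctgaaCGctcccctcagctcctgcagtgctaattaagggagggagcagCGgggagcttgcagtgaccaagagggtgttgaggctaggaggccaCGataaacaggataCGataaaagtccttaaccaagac
H1-5: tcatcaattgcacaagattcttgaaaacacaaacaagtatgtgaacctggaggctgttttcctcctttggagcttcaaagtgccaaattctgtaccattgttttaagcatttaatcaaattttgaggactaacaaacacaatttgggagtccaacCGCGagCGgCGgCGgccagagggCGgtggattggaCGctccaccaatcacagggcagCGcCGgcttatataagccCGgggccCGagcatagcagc
H2AC21: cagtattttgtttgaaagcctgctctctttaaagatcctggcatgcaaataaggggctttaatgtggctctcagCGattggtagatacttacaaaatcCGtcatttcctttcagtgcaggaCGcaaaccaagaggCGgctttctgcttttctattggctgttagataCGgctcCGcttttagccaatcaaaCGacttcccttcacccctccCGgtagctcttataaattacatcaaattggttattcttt

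The 4 germline and cancer-testis promoters differed widely in CG content. The MAEL window held 51 CG in 250 bases, GCNA 18, TKTL1 13 and SSX1 3, while AQP1 held 8, CD226 5, H1-5 11 and H2AC21 8. Over the whole RefSeq window of 300 bases, which adds 50 bases after the start, CG occurred at 1.12 times the frequency expected from C and G content in MAEL, 0.87 in GCNA, 0.74 in TKTL1, 0.44 in CD226, 0.32 in AQP1 and 0.26 in SSX1. CACGTG, a palindrome known as an E-box, was found in the GCNA window, and GCGGGAA, searched on both strands as a core of E2F sites, in the SSX1 window. Such a match is a description of the letters and not a binding site.

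Among the 14237 genes tested that have a RefSeq promoter, strongly raised genes had fewer CG at the median, but not at the upper quartile (33 against 32). The 188 genes raised by at least 1 held a median of 18 CG in 300 bases against 23 over all genes, and 26.1% of them held 5 or fewer, against 18.4%. An observed to expected CG ratio of at least 0.6 was found in 53.2% of these windows and in 67.6% of all. It was found in 88.1% of the 67 windows of genes lowered by at least 1. Those 67 nevertheless held a median of 21 CG, below the 23 of all genes, with an upper quartile of 27.5 against 32. Genes with smaller changes lay differently: the 1921 raised by less than 1 had a median of 24 CG, and the 2284 lowered by less than 1 a median of 27. All 12 raised germline genes with a promoter had a ratio of at least 0.6, with a median of 25 CG. The whole germline list was much alike: of its 39 genes with a promoter, raised or not, 82.05% reached that ratio, with a median of 26 CG. The 18 red cell membrane and enzyme genes had a median of 10 CG, and 38.9% reached that ratio. CACGTG was found in 8.88% of all windows, 6.91% of strongly raised, 20.9% of strongly lowered and 40.0% (8 of 20) of ribosome biogenesis windows, and in 0 of 39 histone windows. GCGGGAA was found in 8.95% of all windows, 5.32% of strongly raised and 8.96% of strongly lowered ones. These shares describe the genes called and were not tested.

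**Figure D3:**
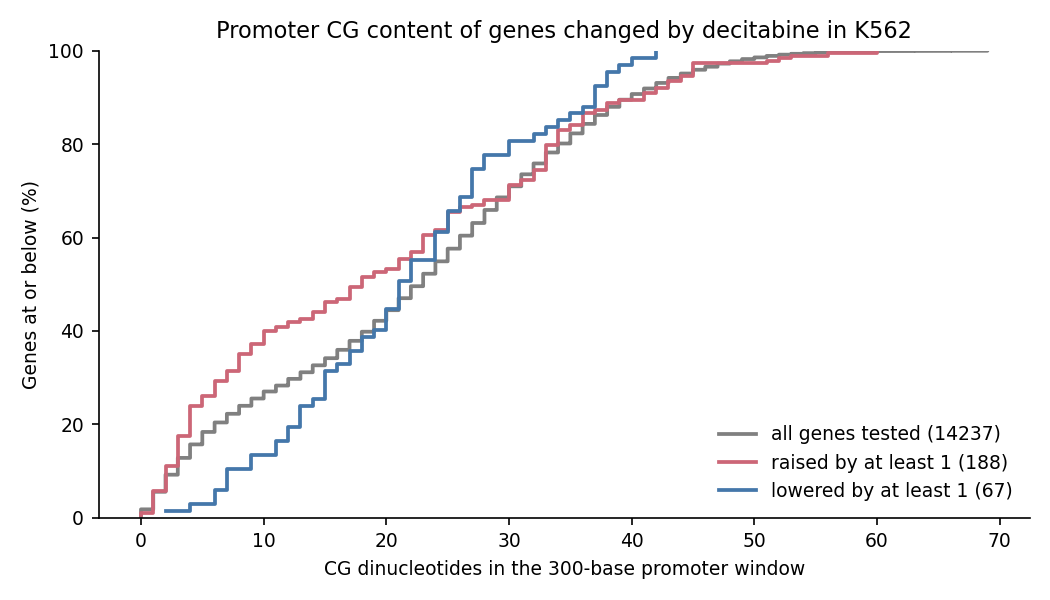
Share of genes (vertical axis, %) with at most a given number of CG dinucleotides in the 300-base promoter window (horizontal axis), for all 14237 genes tested with a RefSeq promoter, the 188 raised and the 67 lowered by at least 1 in K562. At low counts the curve of raised genes runs above that of all genes (26.1% against 18.4% at 5 CG), and the curve of lowered genes below it (2.99%). Both cross the curve of all genes at higher counts: the median of lowered genes is 21 CG, against 23 over all genes.

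Genes of the red cell membrane and of red cell enzymes rose together. Of 24 measured, 20 were raised and 1 lowered (14.6 and 15.7% of all genes), with a median difference of 0.59 against -0.0066 over all genes. The counts were the same without untreated replicate 3, with a median of 0.64. SLC4A1, the anion exchanger band 3 and most abundant protein of the red cell membrane, read 4.98, 4.63 and 7.45 in untreated replicates 1 to 3 and 9.18, 9.39 and 9.36 in treated replicates 1 to 3. The rise of 3.62 ± 0.50 was 12.3-fold (adjusted p = 0.000141) and 22.7-fold, or 4.51, without untreated replicate 3. AQP1, a water channel of red cells and other tissues, read 6.54, 6.37 and 8.58 untreated and 10.01, 10.25 and 10.23 treated, a rise of 3.004 ± 0.41 (adjusted p = 0.000118). It was 8.02-fold, and 13.1-fold without that array. CA1, a carbonic anhydrase that is plentiful in red cells, went from 5.24, 5.28 and 7.10 to 8.47, 8.50 and 8.67 (2.67 ± 0.35, adjusted p = 9.73e-05), and its rise was 3.29 without that array. For both, the untreated arrays other than replicate 3 lay within 0.2 of each other. EPB42, the membrane protein 4.2 that binds band 3, rose by 1.73 ± 0.24, from 4.71 ± 0.69 to 6.44 ± 0.18 (mean ± SD, n = 3). ANK1, the ankyrin that ties band 3 to the spectrin skeleton, was the lowered member, by -0.34 ± 0.06, with untreated arrays at 9.27, 9.12 and 9.19 and treated arrays at 8.84, 8.88 and 8.83. In bulk RNA, fewer cells expressing a gene and less RNA per cell cannot be told apart.

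Globin and haem genes also rose. Of 24 measured members 16 were raised and 1 lowered (66.7 and 4.17%, against 14.6 and 15.7% over all genes), with a median of 0.47. Without untreated replicate 3 these counts were 15 and 1. ALAS2, the erythroid enzyme that starts haem synthesis, read 7.61, 7.40 and 9.11 untreated and 10.39, 10.66 and 10.46 treated. The rise was 2.47 ± 0.31 (adjusted p = 6.98e-05) and 3.001 without that array. AHSP, the chaperone of free alpha globin, read 4.86, 4.60 and 6.35 and then 7.49, 7.66 and 7.83, a rise of 2.39 ± 0.34 (adjusted p = 0.000162; 2.93 without the array). PPOX, a later enzyme of haem synthesis, rose by 1.05 ± 0.10 and HBD, the delta globin of adult cells, by 1.204 ± 0.10. HBD read 6.16, 5.99 and 6.21 in untreated and 7.14, 7.32 and 7.51 in treated arrays, with no overlap and a small spread in each group. The embryonic zeta globin HBZ, already at 11.03 in untreated cells, rose by 0.47 ± 0.07 (adjusted p = 0.000361). HBE1, the embryonic epsilon globin, was at 12.48 and differed by 0.18 ± 0.06, a call (adjusted p = 0.032) that was lost when any single K562 array other than untreated replicate 3 was left out. The alpha and gamma globin genes have no cluster of their own and were left out.

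The factors that drive red cell formation did not share this direction. Of 20 measured, 5 rose and 6 fell (25 and 30%, against 14.6 and 15.7% over all genes). GFI1B, a repressor needed for erythroid and megakaryocytic cells, went from 7.82, 7.82 and 8.11 to 8.42, 8.65 and 8.57, a rise of 0.63 ± 0.09 (adjusted p = 0.000151). EPOR, the erythropoietin receptor, rose by 0.38 ± 0.09. STAT5A, a signal transducer downstream of that receptor and of BCR-ABL1, fell in all arrays, from 9.43, 9.34 and 9.25 to 8.58, 8.36 and 8.30 (-0.92 ± 0.08, adjusted p = 8.47e-06). Its relative STAT5B changed by -0.41 ± 0.07. GATA2, the factor of blood progenitors that GATA1 replaces as erythroid cells mature, changed by -0.72 ± 0.09 (adjusted p = 4.63e-05), with untreated arrays at 8.49, 8.37 and 8.47 and treated arrays at 7.83, 7.83 and 7.52. GATA1 differed by 0.25 ± 0.08, a call (adjusted p = 0.0281) lost without untreated replicate 1 or 2 or treated replicate 2 or 3, and KLF1, a master regulator of globin genes, by 0.05 ± 0.08 (adjusted p = 0.721). TFRC, the transferrin receptor and a marker of the line, read 11.02, 11.10 and 10.84 untreated and 10.93, 10.71 and 10.77 treated, far above the bound for background, as HBZ and HBE1 were.

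Markers of other blood cells moved too, in smaller numbers. Of 21 measured megakaryocyte and platelet genes 8 rose and 1 fell (7 and 1 without untreated replicate 3). These are 38.1 and 4.76%, against 14.6 and 15.7% over all genes. The list median was only 0.078 (0.13 without untreated replicate 3). Of the 21 differences 13 lay above 0 and 8 below, the lowest at -0.38. ITGB3, the integrin subunit of the platelet fibrinogen receptor, read 4.84, 4.83 and 6.00 untreated and 7.08, 7.48 and 7.42 treated, a rise of 2.10 ± 0.24 (adjusted p = 3.4e-05; 2.49 without that array). Its partner ITGA2B rose by 0.99 ± 0.09, TUBB1, the tubulin of platelet microtubules, by 0.97 ± 0.08, and CD9, a platelet tetraspanin, by 0.85 ± 0.11. For these 3 the treated arrays lay above the untreated arrays by at least 0.4, and TUBB1 read 6.73, 6.61 and 6.85 and then 7.60, 7.75 and 7.76. The mean level over the 21 genes was 4.78 to 4.96 in untreated and 5.03 to 5.19 in treated arrays, and 3 and 5 of the 21 had group means not shown to exceed background.

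Of 25 myeloid and monocyte genes 9 rose and 0 fell, with a median of 0.18. The 9 are 36% of the list, against 14.6% of all genes raised. Without untreated replicate 3, 11 rose, with a median of 0.30. LYZ, the lysozyme of monocytes and granulocytes, read 7.77, 7.86 and 9.57 and then 11.06, 11.03 and 10.95, a rise of 2.61 ± 0.34 (adjusted p = 8.93e-05; 3.19 without that array). TYROBP, an adaptor of activating receptors, rose by 0.96 ± 0.15 and AIF1, a calcium-binding protein of macrophages, by 0.75 ± 0.15. S100A8, a calgranulin of neutrophils, read 3.01, 3.09 and 3.40 untreated, not shown to exceed background, and 3.96, 3.60 and 3.99 treated (at least 0.69 ± 0.15). The mean level of the list was 4.63 to 4.91 in untreated and 5.00 to 5.10 in treated arrays. Lymphoid markers were called in 0 of 17 cases in either direction in limma, and in 2, both raised, without untreated replicate 3. Their mean level was 4.12 to 4.31 untreated and 4.11 to 4.30 treated. Of 12 epithelial markers 1 rose and 1 fell, and the calls of both (ELF3 and EPCAM) were lost when single other arrays were left out. Of 16 fibroblast and endothelial markers 2 rose, COL1A1, a collagen chain, by 0.52 ± 0.08 and TAGLN, an actin-binding protein, by 0.41 ± 0.12, the latter call being lost without untreated replicate 1 or 2 or treated replicate 1. The part of other cell types in the changes of the red cell genes was not tested.

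Germline genes held some of the largest rises, in a list where most members were not called. Of 46 measured genes of meiosis, germ cells and piRNA silencing, 15 rose and 3 fell, with and without untreated replicate 3. These are 32.6 and 6.52%, against 14.6 and 15.7% over all genes. The medians were 0.032 and 0.11. In 24 of the 46 neither group mean was shown to exceed background. TKTL1, a transketolase-like protein expressed in testis, read 4.67, 4.39 and 6.62 and then 8.42, 8.65 and 8.60, a rise of 3.33 ± 0.43 (adjusted p = 7.71e-05), which was 10.1-fold and 16.3-fold without untreated replicate 3. HORMAD1, a protein of the meiotic chromosome axis, read 2.35, 2.31 and 4.49 untreated and 6.09, 5.98 and 6.11 treated, a rise of at least 3.01 ± 0.41 (adjusted p = 0.000134; at least 3.73 without that array). Its untreated mean of 3.05 was not shown to exceed background, although replicate 3 alone read above that bound. GCNA, a protein of germ cell nuclei, read 3.15, 2.95 and 4.85 untreated and 6.26, 6.55 and 6.43 treated (2.77 ± 0.35, adjusted p = 7.71e-05; at least 3.37 without the array). MAEL, which silences transposons in the male germline, read 2.72, 2.59 and 3.91 and then 5.41, 5.25 and 5.26, a rise of at least 2.23 ± 0.27 (adjusted p = 4.63e-05). For all 4 genes the ratio between untreated and treated arrays was larger when untreated replicate 3 was left out. The 3 lowered members were PIWIL4, a piRNA-binding protein (-0.68 ± 0.10), TEX15, which helps to direct silencing to transposons (-0.48 ± 0.08), and MEIOB, a meiotic DNA-binding protein (-0.43 ± 0.12), whose call was lost without treated replicate 2 or untreated replicate 1 or 2.

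Cancer-testis antigens, a family of mostly X-linked genes that tumours can express, moved by less. Of 30 measured, 8 rose and 1 fell, and 9 and 3 without untreated replicate 3, with medians of 0.20 and 0.23. With all arrays that is 26.7 and 3.33%, against 14.6 and 15.7% over all genes. SSX3, a transcriptional repressor of the SSX family, went from 4.23, 4.54 and 4.57 to 5.62, 5.33 and 5.37, a rise of 0.99 ± 0.15 (adjusted p = 0.000253). SSX1, of the same family, rose by 0.78 ± 0.09, MAGEC2, a partner of ubiquitin ligases, by 0.63 ± 0.07, and MAGEB6 by 0.59 ± 0.14, while MAGEC1 changed by -0.27 ± 0.07. SSX1 read 5.75, 5.95 and 5.66 and then 6.56, 6.58 and 6.58, so that the treated arrays lay within 0.02 of each other and at least 0.6 above every untreated array. Which copy was read is uncertain, because the SSX and MAGE genes have near-identical relatives. The X chromosome holds 3.77% of the genes tested and 6.40% (16) of those raised by at least 1. Imprinted genes are expressed from 1 parental copy under the control of DNA methylation. They were raised in 8 of 21 cases and lowered in 2 (8 and 3 without untreated replicate 3). The shares with all arrays are 38.1 and 9.52%. NNAT, a small membrane protein of the nervous system, read 4.23, 4.44 and 4.99 and then 5.93, 6.04 and 5.89 (1.40 ± 0.15, adjusted p = 2.19e-05). MEG3, a maternally expressed long non-coding RNA, rose by 1.25 ± 0.29, and by 1.72 without untreated replicate 3, which at 5.61 lay next to the lowest treated array at 5.70. DLK1, its paternally expressed neighbour, rose by 0.73 ± 0.16 and PLAGL1, a zinc finger protein, by 0.64 ± 0.08, while GRB10, an adaptor that limits insulin signalling, changed by -0.57 ± 0.07.

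Genes of interferon responses and antigen processing rose in part. Of 43 interferon-stimulated genes measured, 16 rose and 3 fell (16 and 2 without untreated replicate 3), with a median of 0.16. With all arrays that is 37.2 and 6.98%, against 14.6 and 15.7% over all genes. In 16 of the 43 neither group was shown to exceed background. LGALS3BP, a secreted galectin-binding protein, read 5.21, 5.43 and 6.09 and then 7.04, 7.18 and 7.20, a rise of 1.56 ± 0.18 (adjusted p = 3.4e-05). RSAD2, the antiviral enzyme viperin, read 3.60, 3.22 and 4.28 untreated and 4.88, 5.07 and 5.22 treated (1.36 ± 0.20, adjusted p = 0.000257; 1.65 without that array). IFI6, an interferon-induced mitochondrial protein, rose by 1.26 ± 0.16. CXCL10, an interferon-induced chemokine, was called raised, but its untreated mean of 2.03 and treated mean of 3.08 were not shown to exceed background. IFITM1, which hinders virus entry and was among the bright genes at 11.20, changed by -0.35 ± 0.07. The sensors that recognise foreign nucleic acids hardly moved: of 18, 1 rose and 1 fell (5.56% each). These were the RNA helicase RIGI (0.68 ± 0.16) and IRF3, the factor that sensors activate (-0.37 ± 0.06).

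Of 19 measured antigen presentation genes 9 rose and 1 fell (10 and 1 without untreated replicate 3). With all arrays that is 47.4 and 5.26%, against 14.6 and 15.7% over all genes. PSMB9, a subunit of the immunoproteasome, read 4.36, 4.67 and 5.27 and then 6.61, 6.62 and 6.69, a rise of 1.87 ± 0.17 (adjusted p = 1.04e-05). TAP1, which shares its promoter region with PSMB9 and carries peptides into the endoplasmic reticulum, read 5.08, 4.73 and 5.58 untreated and 6.50, 6.78 and 6.62 treated (1.504 ± 0.16, adjusted p = 2.19e-05). TAP2, the other subunit of that peptide carrier, moved the opposite way, by -0.42 ± 0.09 (adjusted p = 0.00202). TAPBP, which holds class I molecules at the carrier, rose by 0.91 ± 0.08 and the protease CTSS by 0.86 ± 0.14. The PSMB9, TAP1, TAP2 and TAPBP values are those of the brightest of 3 clusters each, and the classical HLA genes were not measured alone.

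Other immune and surface genes gave several of the largest single rises. CD226, an activating receptor of T and NK cells that also marks platelets, read 3.28, 2.97 and 4.13 and then 6.27, 6.42 and 6.30, a rise of 2.87 ± 0.21 (adjusted p = 6.35e-06; at least 3.20 without untreated replicate 3). SLAMF6, a receptor of lymphocytes, read 3.61, 3.26 and 3.77 and then 5.65, 5.91 and 6.29 (2.41 ± 0.15, adjusted p = 4.49e-06), the only one of the 15 largest rises in which untreated replicate 3 lay close to the other untreated arrays. PGLYRP4, a secreted protein that binds bacterial peptidoglycan, read 4.49, 4.16 and 6.08 untreated and 7.75, 7.63 and 7.92 treated (2.85 ± 0.35, adjusted p = 5.44e-05; 3.44 without that array). Of 31 genes of the TNF superfamily 6 rose and 4 fell (19.4 and 12.9%, near the 14.6 and 15.7% over all genes). TNFRSF9, a costimulatory receptor, rose by 2.27 ± 0.23, from 4.29, 4.13 and 5.30 to 6.77, 7.04 and 6.73. TNFSF10, the death ligand TRAIL, rose by at least 1.49 ± 0.14, from 3.34, 2.99 and 3.49, not shown to exceed background, to 4.53, 4.69 and 5.05 (adjusted p = 1.17e-05). Its receptor TNFRSF10A changed the other way, by -0.81 ± 0.10 (adjusted p = 6.14e-05), with untreated arrays at 7.33, 7.27 and 6.91 and treated arrays at 6.42, 6.25 and 6.42. TNFRSF1A, the main TNF receptor, changed by -0.44 ± 0.09 and LTBR, the lymphotoxin receptor, by -0.40 ± 0.07.

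Complement genes were raised in 11 of 25 cases and lowered in 2 (13 and 2 without untreated replicate 3), with a median of 0.30. The shares with all arrays are 44 and 8%, against 14.6 and 15.7% over all genes. C3, the central protein of the cascade, read 4.27, 4.32 and 5.97 and then 7.30, 7.51 and 7.37, a rise of 2.54 ± 0.33 (adjusted p = 9.3e-05; 3.09 without that array). CR2, a receptor for C3 fragments, rose by 0.98 ± 0.09, and C5, which starts the lytic complex, by at least 0.74 ± 0.11. C3AR1, the receptor for the C3a fragment, fell in every array, from 6.75, 6.54 and 6.47 to 5.47, 5.49 and 5.23 (-1.19 ± 0.10, adjusted p = 8.64e-06). Of 42 chemokines, interleukins and their receptors 11 rose and 1 fell (26.2 and 2.38%). IL32, a cytokine of activated lymphocytes, rose by 1.18 ± 0.12, IL18, activated by inflammasomes, by 1.13 ± 0.16, CSF1, the macrophage growth factor, by 1.11 ± 0.13 and IL2RG, the common gamma chain, by 0.97 ± 0.13. IL32 read 4.78, 5.13 and 5.20 and then 6.17, 6.28 and 6.19, and for the other 3 the groups did not overlap either.

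Calls among S100, annexin and cytoskeleton genes were mostly rises, although most members were not called. Of 25 S100 and annexin genes 10 rose and 1 fell (11 and 2 without untreated replicate 3). With all arrays that is 40 and 4%, against 14.6 and 15.7% over all genes. S100A4, which binds myosin, read 5.11, 5.25 and 5.95 and then 6.89, 7.30 and 7.001 (1.63 ± 0.18, adjusted p = 2.98e-05). S100A10, the partner of annexin A2, rose by 1.32 ± 0.15, and the membrane-binding annexins ANXA4 and ANXA6 by 1.36 ± 0.11 and 1.21 ± 0.14. S100A11 was the lowered member, from 9.81, 9.82 and 9.69 to 9.13, 9.06 and 8.87 (-0.75 ± 0.11, adjusted p = 0.000196). Of 39 cytoskeleton and adhesion genes 15 rose and 4 fell (38.5 and 10.3%). Among them ITGB7, an integrin subunit of lymphocytes, rose by 1.30 ± 0.18 and CD82, a tetraspanin, by 1.05 ± 0.09. SCIN, an actin-severing protein, rose by 1.03 ± 0.18 and CNN1, a calponin, by 0.87 ± 0.09. LCP1, the plastin of blood cells, changed by -0.44 ± 0.07 and ACTB, a beta actin often used as a reference, by -0.25 ± 0.06 (adjusted p = 0.00741). Of 27 lysosome genes 17 rose and 3 fell (17 and 2 without untreated replicate 3), with a median of 0.39. Those calls with all arrays are 63.0 and 11.1% of the list. SCARB2, a membrane protein that delivers glucocerebrosidase, read 6.03, 6.07 and 6.02 and then 7.03, 7.11 and 7.11 (1.04 ± 0.08, adjusted p = 6.35e-06), with the untreated arrays, replicate 3 included, close together. ASAH1, acid ceramidase, rose by 1.001 ± 0.08 and PSAP, the precursor of the saposins, by 0.85 ± 0.09, while CTSC, a protease that activates granule enzymes, changed by -0.53 ± 0.08.

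Genes for replication-dependent histones, which are transcribed in S phase to package new DNA, showed the lowest median of the 42 lists. Of 44 measured, 32 fell and 6 rose (72.7 and 13.6%, against 15.7 and 14.6% over all genes), with a median of -0.81. Without untreated replicate 3 the counts were the same and the median was -0.86. H1-5, a linker histone, read 9.47, 9.46 and 9.46 untreated and 7.68, 6.69 and 6.48 treated (-2.52 ± 0.22, adjusted p = 8.25e-06). The untreated arrays lay within 0.02 of each other, and treated replicate 1 lay 0.99 above the next treated array. H2AC21 read 10.69, 10.73 and 10.75 and then 9.38, 8.23 and 8.08 (-2.16 ± 0.24, adjusted p = 3.24e-05), and H2AC20 changed by -2.03 ± 0.23; both encode core histone H2A. H4C2, an H4 gene, read 8.95, 9.01 and 8.78 and then 7.48, 6.71 and 6.67 (-1.96 ± 0.16, adjusted p = 7.21e-06). For these 4 genes untreated replicate 3 lay within 0.3 of the other untreated arrays on the log2 scale. On the linear scale it still leaned towards treated cells, with a median position of 16.3% over 30 lowered histone genes. The 6 raised members included H1-1 (1.24 ± 0.13), the H4 gene H4C9 (0.98 ± 0.09) and the H3 gene H3C11 (0.98 ± 0.23; 1.26 without untreated replicate 3). H4C9 read 8.03, 7.995 and 8.37 untreated and 9.10, 9.12 and 9.12 treated. Many histone genes have almost the same sequence, so which member was read is uncertain. Most of them lie in clusters on chromosomes 6 and 1. Those chromosomes hold 22 and 20 of the 105 genes lowered by at least 1 (20.95 and 19.05%, against 5.31 and 10.1% of genes tested). These counts take in genes of any kind, not histone genes alone.

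The immediate early genes, transcribed within minutes of a growth signal without new protein, fell as well. Of 25 measured AP-1, EGR and related genes 13 fell and 2 rose (14 and 2 without untreated replicate 3), with a median of -0.23. With all arrays that is 52 and 8%, against 15.7 and 14.6% over all genes. EGR1, a zinc finger factor induced by ERK signalling, read 11.31, 11.34 and 11.21 untreated and 9.98, 9.13 and 8.54 treated, a change of -2.07 ± 0.25 (adjusted p = 4.59e-05). FOS, a subunit of AP-1, read 7.66, 7.53 and 7.25 and then 6.198, 5.76 and 5.30 (-1.73 ± 0.17, adjusted p = 1.43e-05). For both genes the treated arrays spread by over 0.8, with replicate 1 highest. IER2 changed by -1.004 ± 0.10 and FOSB, another AP-1 subunit, by -0.80 ± 0.14, while FOSL2, a Fos relative, rose by 0.39 ± 0.09 and IER3, which counters cell death, by 0.45 ± 0.09. Of 25 genes that report or limit ERK output 12 fell and 1 rose (12 and 2 without untreated replicate 3). The shares with all arrays are 48 and 4%. EREG, a ligand of the EGF receptor, read 8.96, 9.02 and 8.63 and then 7.48, 7.03 and 6.98 (-1.71 ± 0.20, adjusted p = 4.07e-05). SPRY4, an inhibitor of the pathway, changed by -1.26 ± 0.12, and DUSP1, a phosphatase that inactivates MAP kinases, by -1.09 ± 0.09, with untreated arrays at 8.29, 8.12 and 8.03 and treated arrays at 7.18, 7.06 and 6.94. PHLDA1 was the raised member (0.88 ± 0.10). MYC, at 9.74 in untreated cells, differed by -0.23 ± 0.07, a call (adjusted p = 0.0195) that was lost without untreated replicate 1 or treated replicate 1. The fusion partners BCR and ABL1 read 8.13 and 9.05 and differed by 0.27 ± 0.08 and 0.31 ± 0.07; the BCR call was lost without untreated replicate 2 or treated replicate 2 or 3, and these clusters do not separate the fusion from the normal genes.

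Genes of ribosome biogenesis fell almost throughout. Of 24 measured 23 fell and 0 rose in limma, as they did without untreated replicate 3, with medians of -0.66 and -0.68. The 23 are 95.8% of the list, against 15.7% of all genes lowered. All 24 differences lay below 0. UTP20, part of the complex that processes the small subunit RNA, read 7.94, 7.97 and 7.59 and then 6.53, 6.16 and 6.37 (-1.48 ± 0.11, adjusted p = 6.35e-06). RRP9, which binds the U3 RNA, changed by -1.02 ± 0.11, RRP12, which helps to export pre-ribosomes, by -1.003 ± 0.09 and POLR1B, a subunit of RNA polymerase I, by -0.98 ± 0.11. POLR1B read 8.32, 8.30 and 7.89 untreated and 7.28, 7.02 and 7.27 treated, and in each of the 4 genes untreated replicate 3 was the lowest untreated array while still above every treated one. GPATCH4, a nucleolar protein, read 7.64, 7.52 and 7.32 and then 6.16, 5.67 and 5.95 (-1.57 ± 0.12, adjusted p = 6.35e-06). Ribosomal protein genes, by contrast, were called in 4 of 27 cases, 2 in each direction, with a median of -0.0075.

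Small nucleolar RNA genes, whose products guide the modification of ribosomal RNA and mostly lie in introns of other genes, fell in 60 of 175 cases (34.3%) and rose in 19. The rises are 10.9%, and the shares over all genes are 15.7% lowered and 14.6% raised. Without untreated replicate 3 the counts were 64 and 17. They make up 0.950% of the genes tested and 24 of the 105 genes lowered by at least 1 (22.9%). SNORD20 read 4.33, 5.23 and 3.78 and then 2.74, 2.25 and 2.33, a change of -2.01 ± 0.32 (adjusted p = 0.000365) whose size is a lower bound, since the treated mean was not shown to exceed background. SNORA67 read 9.33, 9.29 and 8.91 and then 8.10, 7.51 and 7.55 (-1.46 ± 0.26, adjusted p = 0.000848). A cRNA array can read the host gene's transcript at such a cluster, so RNA of the host and the small RNA cannot be told apart. Of 20 small nuclear RNA genes 9 fell and 2 rose (45 and 10%). MIR17HG, the host transcript of the miR-17-92 cluster, read 8.40, 8.60 and 8.08 and then 6.88, 6.12 and 6.52 (-1.85 ± 0.16, adjusted p = 8.09e-06; -1.99 without untreated replicate 3).

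Genes that the stress factor ATF4 is known to control, including those of serine and one-carbon metabolism, fell in 19 of 30 cases and rose in 1. These are 63.3 and 3.33%, against 15.7 and 14.6% over all genes. The counts were the same without untreated replicate 3 (medians -0.33 and -0.36). PSAT1, an enzyme of serine synthesis, read 8.02, 8.10 and 7.91 and then 6.92, 6.62 and 6.49 (-1.33 ± 0.10, adjusted p = 6.35e-06). SLC7A11, the cystine importer, changed by -1.07 ± 0.13, MTHFD1L, a mitochondrial folate enzyme, by -1.05 ± 0.09 and SLC7A5, an importer of large amino acids, by -0.97 ± 0.08. SLC7A5 read 9.14, 9.07 and 8.99 untreated and 8.25, 8.09 and 7.96 treated. The raised member was DDIT3, the stress factor CHOP (0.42 ± 0.12), whose call was lost without untreated replicate 2 or treated replicate 1 or 2. Chaperones of the endoplasmic reticulum were called in both directions, 6 raised and 4 lowered of 24 (25 and 16.7%), with DNAJB9, a co-chaperone, rising by 0.42 ± 0.09 and XBP1, a factor of the unfolded protein response, changing by -0.39 ± 0.08. Of 18 cytosolic and mitochondrial heat shock genes 7 fell and 1 rose (38.9 and 5.56%). HSPE1 and HSPD1, which form the mitochondrial chaperonin, changed by -0.81 ± 0.08 and -0.49 ± 0.08 and HSPH1 by -0.66 ± 0.09. The raised gene was CRYAB, a small heat shock protein, from 4.74, 5.00 and 6.01 to 7.38, 7.36 and 7.42 (2.14 ± 0.23, adjusted p = 2.86e-05; 2.51 without untreated replicate 3).

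By calls, cholesterol, glycolysis and oxidative phosphorylation genes were lowered more often than raised, and antioxidant genes the reverse. Of 26 cholesterol and fatty acid genes 12 fell and 5 rose (12 and 3 without untreated replicate 3). With all arrays that is 46.15 and 19.2%, against 15.7 and 14.6% over all genes. FADS2, a fatty acid desaturase, read 7.53, 7.36 and 7.19 and then 6.64, 6.41 and 6.38 (-0.88 ± 0.09, adjusted p = 2.07e-05), while its neighbour FADS1 rose by 0.60 ± 0.07 (adjusted p = 3.08e-05). FASN, the fatty acid synthase, changed by -0.63 ± 0.07 and CYP51A1, a sterol demethylase, by -0.57 ± 0.07. Of 28 glycolysis and hypoxia genes 11 fell and 6 rose (39.3 and 21.4%, both above the shares over all genes). HK2, a hexokinase, read 8.09, 8.08 and 7.69 and then 7.27, 6.80 and 6.33 (-1.15 ± 0.19, adjusted p = 0.00045), and the glucose carriers split, SLC2A3 changing by -1.09 ± 0.11 and SLC2A1, the carrier of red cells, by 0.47 ± 0.07. Of 26 oxidative phosphorylation genes 9 fell and 1 rose (34.6 and 3.85%). Among them were NDUFA9 and NDUFAB1, subunits of complex I (-0.57 ± 0.09 and -0.56 ± 0.08). Of 33 glutathione and antioxidant genes 11 rose and 5 fell (33.3 and 15.15%). Their median was -0.022, with 15 differences above 0 and 18 below, so the list as a whole did not shift upwards. GPX3, a secreted glutathione peroxidase, read 3.90, 3.90 and 5.15 and then 6.29, 6.28 and 6.48 (2.03 ± 0.25, adjusted p = 5.6e-05; 2.45 without untreated replicate 3). GSTM3 and GSTM2, glutathione transferases with close relatives, rose by 1.78 ± 0.16 and 1.01 ± 0.14, and SELENOP, the selenium carrier, by 0.76 ± 0.10. NQO1, a quinone reductase, changed by -0.73 ± 0.11 and SRXN1, sulfiredoxin, by -0.60 ± 0.09.

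The cell's own methylation machinery fell in 13 of 31 cases and rose in 2 (14 and 3 without untreated replicate 3), with a median of -0.18. With all arrays that is 41.9 and 6.45%, against 15.7 and 14.6% over all genes. DNMT1, the maintenance methyltransferase, read 9.42, 9.46 and 9.43 and then 9.21, 9.17 and 9.09, a change of -0.28 ± 0.06 (adjusted p = 0.00421). DNMT3B, which methylates new sites, read 7.63, 7.47 and 7.48 and then 7.11, 7.05 and 7.07 (-0.45 ± 0.08, adjusted p = 0.000962). DNMT3A, the other such enzyme, differed by 0.28 ± 0.10 (adjusted p = 0.0529) and was called without untreated replicate 3 (0.37, adjusted p = 0.00893). HELLS, a remodeller needed for DNA methylation, changed by -0.49 ± 0.11, L3MBTL2, a chromatin reader, by -0.47 ± 0.07 and MBD2, which binds methylated CG, by -0.41 ± 0.09. TET3, which oxidises methylcytosine, rose by 0.30 ± 0.08. These are RNA levels, and the protein, which decitabine traps, was not measured. Of 24 genes of decitabine uptake and nucleotide metabolism 2 rose and 3 fell (8.33 and 12.5%, below the shares over all genes). DCK, the kinase that activates the drug, differed by 0.19 ± 0.09 (adjusted p = 0.127) and CDA, which deaminates it, by -0.10 ± 0.10 (adjusted p = 0.496). The nucleoside carrier SLC29A2 read 8.17, 7.997 and 8.14 untreated and 7.47, 7.48 and 7.52 treated (-0.61 ± 0.07, adjusted p = 2.66e-05). Its relative SLC29A1 differed by 0.24 ± 0.07, a call lost without untreated replicate 1 or 2 or treated replicate 2 or 3, and TK1, thymidine kinase, rose by 0.43 ± 0.10.

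ABCB1 encodes P-glycoprotein, the pump best known for carrying adriamycin out of cells. In sensitive K562 this gene read 3.30, 3.24 and 3.63 untreated and 3.78, 3.05 and 3.54 treated, a difference of 0.07 ± 0.15 (adjusted p = 0.794; 95% interval -0.25 to 0.39) with overlapping arrays and an untreated mean not shown to exceed background. Of 24 measured drug efflux transporters 9 rose and 4 fell (9 and 5 without untreated replicate 3). These are 37.5 and 16.7%, against 14.6 and 15.7% over all genes. ABCG2, a pump for many cytostatics, read 4.42, 4.34 and 4.48 and then 5.27, 5.22 and 5.49 (0.91 ± 0.10, adjusted p = 3.17e-05), with no overlap. ABCA1, a cholesterol exporter, rose by at least 0.77 ± 0.12 and ABCB11, the bile salt pump, by at least 1.003 ± 0.19, while ABCG1, another sterol exporter, changed by -0.43 ± 0.11. ABCC1, an anthracycline pump, differed by 0.14 ± 0.07 (adjusted p = 0.147). Of 20 anthracycline targets and metabolic genes 6 rose and 2 fell (30 and 10%). TOP2A, a topoisomerase that anthracyclines trap, read 9.91, 10.10 and 9.96 and then 10.55, 10.44 and 10.55 (0.53 ± 0.08, adjusted p = 0.00022). The aldo-keto reductases AKR1C1, AKR1C2 and AKR1C3, close relatives of one another, rose by 0.42 ± 0.06, 0.65 ± 0.10 and 0.56 ± 0.08.

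Genes of mitosis rose in 19 of 33 cases and fell in 0 in limma (19 and 1 without untreated replicate 3), with medians of 0.34 and 0.29. The 19 are 57.6% of the list, against 14.6% of all genes raised. CDC25C, a phosphatase that starts mitosis, read 6.91, 6.89 and 7.17 and then 7.76, 7.88 and 7.94 (0.87 ± 0.10, adjusted p = 3.13e-05). CENPE and KIF20A, mitotic kinesins, rose by 0.65 ± 0.10 and 0.63 ± 0.07, with the KIF20A arrays at 9.12, 9.14 and 9.12 and 9.74, 9.73 and 9.80. DNA replication genes were called in both directions, 5 raised and 9 lowered of 36 (13.9 and 25%, against 14.6 and 15.7% over all genes). PCNA, the sliding clamp, changed by -0.48 ± 0.09, MCM7, a helicase subunit, by -0.39 ± 0.07 and GINS3, another, by -0.82 ± 0.11, while CDT1, which loads the helicase, rose by 0.42 ± 0.07. Of 31 repair and checkpoint genes 7 rose and 8 fell (22.6 and 25.8%, against the same shares over all genes). ATM, a kinase activated by strand breaks, went from 7.93, 8.05 and 8.06 to 8.83, 8.78 and 9.11 (0.89 ± 0.09, adjusted p = 1.69e-05). XRCC5 and XRCC6, which form the Ku heterodimer, changed by -0.37 ± 0.08 and -0.43 ± 0.08.

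Targets of p53, which K562 is known to lack, were called in both directions, 6 raised and 8 lowered of 28. These are 21.4 and 28.6%, against 14.6 and 15.7% over all genes. TP53INP1, a stress protein that other factors can also induce, read 5.17, 5.25 and 6.35 and then 7.61, 7.63 and 7.63 (2.04 ± 0.23, adjusted p = 3.27e-05; 2.42 without untreated replicate 3). CDKN1A, an inhibitor of cell cycle kinases, rose by 0.35 ± 0.08 (adjusted p = 0.00481), and CCNG1 by 0.53 ± 0.07. AEN, an apoptosis-enhancing nuclease, changed by -0.81 ± 0.08 and PLK3, a stress kinase, by -0.79 ± 0.10. Of 29 genes of the BCL2 family and apoptosis 9 rose and 3 fell (31.0 and 10.3%). BCL2L11, the death promoter BIM, read 6.37, 6.39 and 6.53 and then 7.10, 7.24 and 7.33 (0.80 ± 0.08, adjusted p = 1.35e-05), and BMF, of the same class, rose by 0.57 ± 0.11. MCL1, which protects against death, read 9.60, 9.64 and 9.24 and then 8.87, 8.66 and 8.55 (-0.80 ± 0.11, adjusted p = 0.000124), and CFLAR, an inhibitor of death receptors, changed by -0.53 ± 0.10. BAX, a pore-forming death effector, also changed downwards, by -0.31 ± 0.07. Of 23 HOX and related genes 4 rose and 3 fell (17.4 and 13.04%, near the shares over all genes), among them HOXB6 (0.58 ± 0.10) and HOXB2 (-0.54 ± 0.07), both on chromosome 17.

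**Figure D4:**
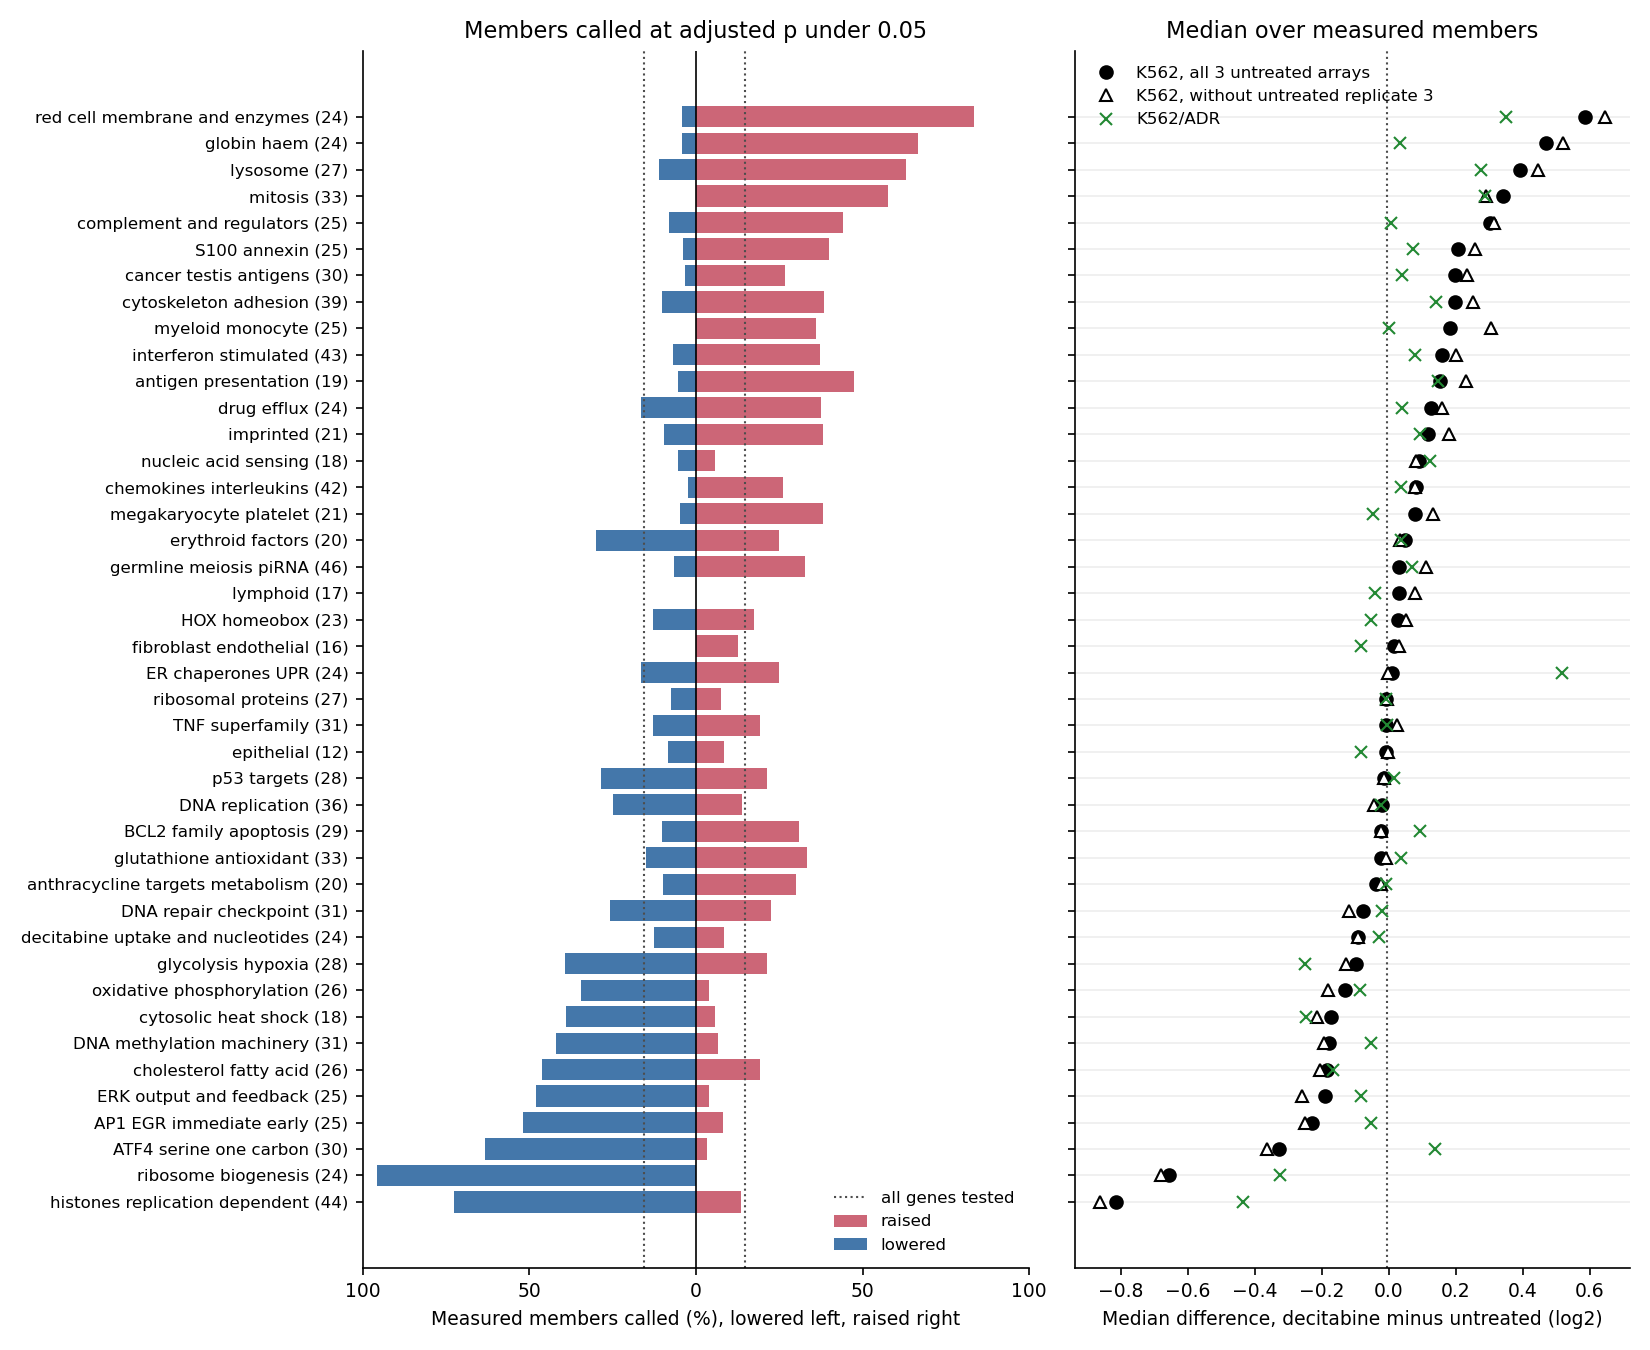
Left, the share of measured members called lowered (to the left) and raised (to the right) by decitabine in K562 for each of the 42 gene lists, with the number measured in brackets and the shares over all genes tested (15.7 and 14.6%) as dotted lines. Right, the median difference of each list (log2) in K562 with all arrays, in K562 without untreated replicate 3 and in K562/ADR. Red cell membrane and enzyme genes stand highest at 0.59 and histone genes lowest at -0.81; without untreated replicate 3 these medians are 0.64 and -0.86, and the myeloid median moves from 0.18 to 0.30.

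In K562/ADR the same treatment called 2694 genes (14.6%), 1780 raised (9.66%) and 914 lowered (4.96%), of which 86 (0.467%) and 5 (0.0271%) by at least 1. The difference of the responses was tested gene by gene and called for 1241 genes (6.74%). The response lay higher in K562 for 394 of them (2.14%) and lower for 847 (4.60%); with quantile normalization the split was 522 and 611. Without untreated replicate 3 the counts were 749 and 1300, and without untreated replicate 1 they were 200 and 364, so the number of such genes depends on single arrays. Of the 250 genes raised by at least 1 in K562, 180 were raised and 0 lowered in K562/ADR, with median differences of 1.29 and 0.67. Of the 105 lowered by at least 1, 56 were lowered and 0 raised there (medians -1.16 and -0.42). These genes were chosen for their size in K562, so the medians describe them and do not compare the lines. Across all genes the differences in the lines correlated at r = 0.62 (Spearman rho 0.48), a description across genes that are not independent replicates; the lines share no arrays.

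In the list of meiosis, germ cell and piRNA genes 0 of 46 differences of responses were called in limma with all arrays. In the cancer-testis list 2 of 30 were, both higher in K562. Over all genes tested 2.14% were called higher in K562 and 4.60% lower. TKTL1 rose by 3.33 ± 0.43 in K562 and 2.76 in K562/ADR, a difference of 0.57 (adjusted p = 0.63) that was called without untreated replicate 3 (adjusted p = 0.0132). GCNA, HORMAD1 and MAEL rose in K562/ADR by at least 2.81, 2.70 and 3.14, from untreated means not shown to exceed background. Since their rises are minimums in at least 1 line, the size of the difference between the lines is not given. For the red cell genes the K562 response was larger in 5 of 24 membrane and enzyme genes and in 6 of 24 globin and haem genes, and smaller in 0. HBD rose by 1.204 ± 0.10 in K562 and differed by -0.05 in K562/ADR (difference 1.25, adjusted p = 0.00194). The SLC4A1 rise was 1.77 in K562/ADR, and its difference of 1.86 was not called with all arrays (adjusted p = 0.142) and was called without untreated replicate 3 (adjusted p = 2.6e-06).

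Several lists that fell in K562 held lower responses there. Over all genes tested the response was called lower in K562 for 4.60% and higher for 2.14%. In K562/ADR 9.66% of all genes rose and 4.96% fell. In the ATF4 list the response was lower in K562 for 18 of 30 genes and higher for 0, and the list medians were -0.33 in K562 and 0.14 in K562/ADR. The PSAT1 difference was -1.33 ± 0.10 in K562 and 0.07 in K562/ADR, where it was not called (difference of responses -1.40, adjusted p = 0.000821). Among the chaperones of the endoplasmic reticulum 18 of 24 rose in K562/ADR, and the response was lower in K562 for 11 of 24. Immediate early genes had 8 of 25 lower responses in K562 and 1 higher. EGR1 gave -2.07 ± 0.25 in K562 and -0.26 in K562/ADR (difference of responses -1.81, adjusted p = 0.0119), and FOS -1.73 ± 0.17 and -0.06 (adjusted p = 0.00289). Neither was called in K562/ADR, where untreated cells already read lower. EGR1 averaged 9.09 there, against 11.29 in untreated and 9.22 in treated K562, and FOS 6.36, against 7.48 and 5.75. Whether the starting level bears on these differences was not tested. Histone genes fell in both lines, in 32 of 44 cases in K562 and 26 of 44 in K562/ADR, with lower responses in K562 for 8 and a higher one for 1. H1-5 changed by -1.40 in K562/ADR, and the difference of -1.12 lay at the threshold (adjusted p = 0.0496), with 0.0573 without untreated replicate 3. The largest differences towards K562 were in CRYAB (2.56, adjusted p = 0.00236), PGLYRP4 (2.06, 0.0276), HPGD, which inactivates prostaglandins (1.804, 0.0087), ZC3H6, a zinc finger protein (1.65, 0.00278), and PSMB9 (1.65, 0.00309). Beside EGR1, FOS, SNORD20 and SNORA67, the largest in the opposite direction was in RUNDC3B, a RUN-domain protein next to ABCB1. It differed by -0.17 ± 0.22 in K562 (adjusted p = 0.631) and rose by 1.56 in K562/ADR. ABCB4, a phospholipid transporter that lies beside ABCB1 too, showed the same, with -0.08 ± 0.12 in K562 and 1.40 in K562/ADR (difference -1.48, adjusted p = 0.00194).

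**Figure D5:**
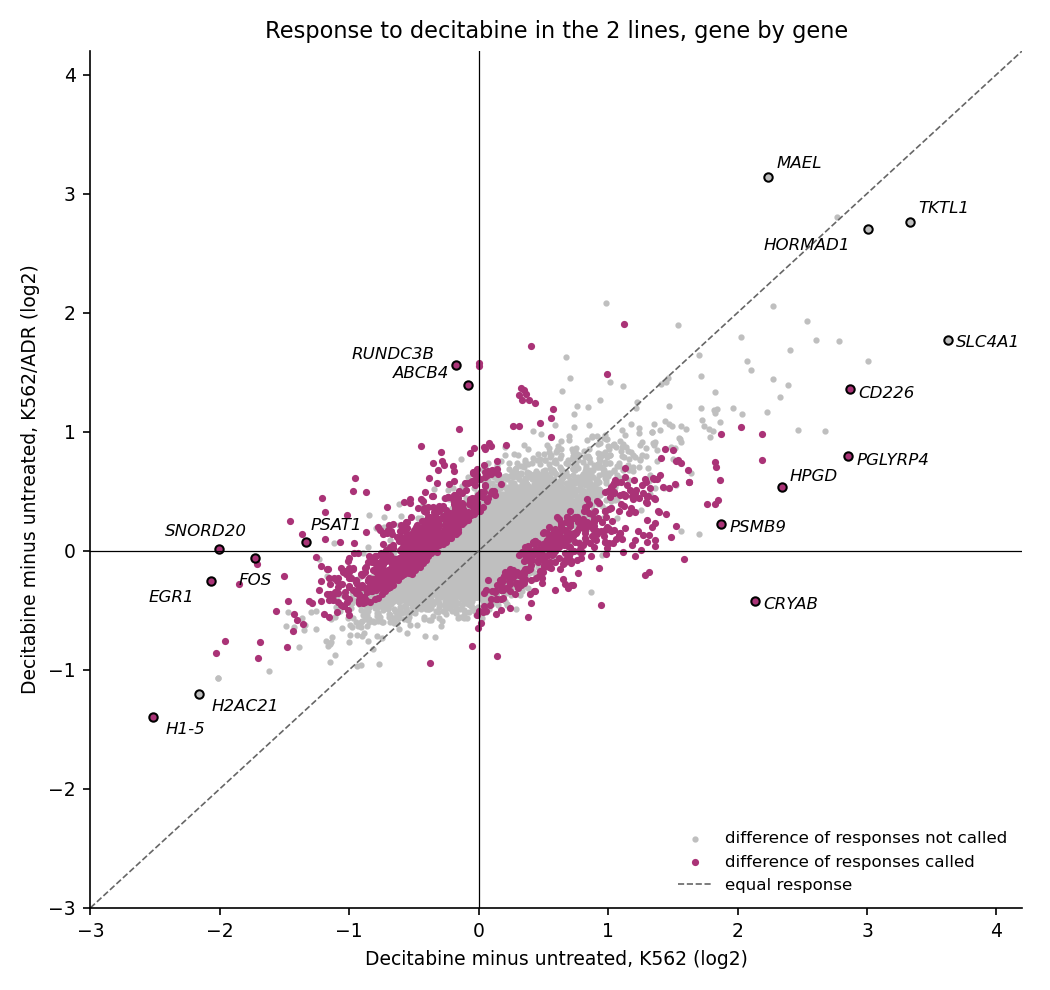
Difference by decitabine in K562 (horizontal, log2) and in K562/ADR (vertical, log2) for all 18417 genes, with the 1241 genes whose difference of responses was called in purple and a dashed line of equal response. HORMAD1 lies near the line, with MAEL above and TKTL1 below it (the rises of HORMAD1 and MAEL are minimums in both lines), CRYAB and PGLYRP4 far to the right of it, and EGR1, FOS and SNORD20 far to the left.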

How the data were processed

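Levels were taken from the table the authors deposited, as log2 intensities per transcript cluster of an Affymetrix gene array. Background correction, summarization and normalization are not given in the sources used here, and the log2 scale was read from the values (0.226 to 13.2, array medians 4.96 to 5.01). Of 33297 clusters, 19460 carry 1 gene symbol, 1754 several and 12083 none. Symbols were updated through RefSeq for 19429 clusters, and the brightest cluster stood for a gene, giving 18417 genes. Differences were fitted with limma 3.58.1 in R 4.3.3 over all 12 arrays (4 groups of 3, 8 residual and 4.71 prior degrees of freedom), with Benjamini-Hochberg adjustment over all genes. Only 3 arrays a group limit the precision. Tested on simulated data with 200 changed genes among 18417 for the K562 comparison (10 runs), the fit found 64.4% of changes of 0.5 and 96.4% of changes of 1, with 4.84% false calls. The simulated noise was independent and no array was displaced, whereas in the data 30.3% of genes were called and untreated replicate 3 stood apart. These rates may therefore not hold for the data.

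The members, gene lists and tests were chosen with earlier results of these data known. Named genes were the 15 largest rises and falls called with and without untreated replicate 3 and without overlap between groups, up to 4 per list and direction, a fixed set of drug, methylation, erythroid and BCR-ABL1 genes, and the 5 largest differences of response in each direction. Alternatives covered normalization, gene summary, dim genes, variance, weights, a replicate block, the arrays in the fit and leaving out each array. Samples were not treated as paired by replicate number. Deviations of same-numbered K562 arrays correlated at 0.066, -0.22 and -0.028, and those of other-numbered arrays at -0.25 to 0.26. With 3 arrays a group, 1 of them displaced, these values cannot settle whether the numbers pair the samples. Plots come from matplotlib 3.10.9 (Python 3.11.15), and promoter sequences are from RefSeq on GRCh38.p14.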

Additional observations from a re-analysis of the deposited data

Results flagged for a closer look

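The K562 response minus the K562/ADR response, in log2, was examined for the 260 named genes. It was called at an adjusted p under 0.05 in limma, with and without untreated K562 replicate 3, for 77 of them. Over all genes tested it was called for 6.74% with all arrays. Named genes were mostly chosen for large differences in K562, and 5 in each direction for this difference itself. The count of 77 follows in part from that choice. Positive values mean a higher response in K562. Among cancer-testis, imprinted and antigen processing genes these were MAGEC2 (0.57), SSX1 (0.80), NNAT (0.76), PLAGL1 (0.40), GRB10 (-0.54) and PSMB9 (1.65). Interferon and sensing genes gave RSAD2 (1.13), IFITM1 (-0.35) and IRF3 (-0.51). Red cell, platelet and factor genes gave HBD (1.25), HBZ (0.53), CD9 (0.54), TUBB1 (0.90), ITGA2B (-0.50), GATA2 (-0.46), STAT5A (-0.61) and TRIM10 (-0.57). Immune, surface and complement genes gave CD226 (1.51), PGLYRP4 (2.06), TNFSF10 (1.37), S100A8 (0.75), C3AR1 (-1.51), CD82 (0.46) and ITGB7 (1.23), and calcium-binding, cytoskeletal and lysosomal genes S100A10 (1.18), S100A4 (1.05), S100A11 (-0.74), CNN2 (-0.45), PSAP (0.46) and SCARB2 (0.47).

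Immediate early and ERK genes were EGR1 (-1.81), FOS (-1.66), IER2 (-0.70), FOSL2 (0.45), DUSP1 (-0.78), EREG (-1.60), SPRY4 (-1.20), MYEOV (-0.97) and PHLDA1 (0.64). The starting levels differed between the lines: untreated means in K562/ADR and K562 were 4.58 and 8.87 for EREG, and 8.41 and 8.15 for DUSP1. Histone genes were H4C2 (-1.20), H2AC8 (-0.92), H1-3 (-0.80) and H4C9 (0.90). Nucleolar genes and RNAs were UTP20 (-0.67), RRP12 (-0.59), RRP9 (-0.58), GPATCH4 (-1.06), SNORD20 (-2.02), SNORA67 (-1.70) and MIR17HG (-1.58). Amino acid, one-carbon and endoplasmic reticulum genes were PSAT1 (-1.40), SLC7A11 (-1.15), SLC7A5 (-1.03), MTHFD1L (-0.87), HERPUD1 (-0.89), XBP1 (-0.67) and ERO1B (-0.62). Metabolic genes were FADS1 (0.51), FADS2 (-0.57), FASN (-0.43), P4HA1 (1.01), SLC2A3 (-0.65) and HPGD (1.804). Replication, repair and p53 target genes were RFC1 (0.35), GINS3 (-0.66), RAD51C (-0.42), CCNG1 (0.38), AEN (-0.73), PLK3 (-0.75) and TIGAR (-0.94), and methylation genes DNMT3B (-0.43) and L3MBTL2 (-0.46). The others were CRYAB (2.56), ZC3H6 (1.65), ELF3 (0.65), ABCB4 (-1.48) and RUNDC3B (-1.74). For ERO1B, RSAD2, S100A8, SNORD20, TIGAR and TNFSF10 a group mean in K562 or K562/ADR was not shown to exceed background, so the size of their difference is uncertain.

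Outside the genes compared, 1614 of 13837 transcript clusters with several symbols or none were called in K562 (11.7%), 616 raised (4.45%) and 998 lowered (7.21%).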

How the results depend on the processing

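Under the 16 alternatives run for them, K562 rises numbered 2177 to 3086 and falls 2331 to 3146, against 2685 and 2900; quantile normalization gave 3086 rises and 2546 falls and so turned the majority. Leaving out 1 K562 array gave 2177 to 2710 rises and 2331 to 3065 falls, and 218 to 329 and 79 to 148 of at least 1. Without both untreated replicate 3 and treated replicate 1, a setting chosen after seeing the data, 196 genes fell by at least 1. Counts of genes with a higher or lower response in K562 than in K562/ADR (394 and 847) moved most. They were 814 and 1474 with array weights, 200 to 749 and 364 to 1300 when 1 array was left out, and 774 higher without the pair of arrays; the intensity trend gave 1336 lower. With the replicate number as a block, although it is not known whether the numbers pair the samples, they were 218 and 345. K562 rises and falls were then 2335 and 2491. The cause of these moves was not tested. Of 260 named genes 251 were called; 37 of them lost the call under some of the 22 alternatives run in all, 4 others gained it (ABCC1, DCK, DNMT3A and TFRC) and 0 called ones changed sign.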
